A study of Saccharomyces cerevisiae with 56 samples.

Results

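The variants described here are double substitutions of PDZ3, a peptide-binding domain of the synaptic scaffold protein PSD-95, in which 1 of the 2 changes replaces H372, a histidine that touches the bound ligand. They were chosen by comparing each protein sequence of the deposited table with the wild type over a block of 66 residues that starts at R312 and keeping every variant with exactly 2 changes, 1 of them at H372, no stop codon and an error under 50. Of 384696 entries in the table, 17137 met this rule, out of 338385 entries of double substitutions in all. They are 2526 distinct variants of 50687. The error limit removed only a placeholder of 100 on the 8 entries marked as wild type, and the largest error of a member was 1.26. The partner change fell at only 7 residues: R312 in strand 1, I327, G329 and G330 in strand 2, D357 in the region of strand 4, and S371 and E373, which flank H372 at the start of helix 2. With all 19 amino acids at each residue, 2527 such variants were possible, 361 for each partner residue, and 1 of those with G330 was not in the table. Each double was set against its 2 matching single substitutions in the same construct and assay, so doubles that share a single are not independent of each other.

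Yeast of strain BY4742 carried the variants in 4 constructs, which the labels call N, C, NC and PDZ3: the domain with an N extension, with a C extension, with both, and the domain alone. Each construct went through bindingPCA and abundancePCA, growth competitions of 5 generations at 30 °C in selective medium. Both are protein-fragment complementation assays, in which growth depends on a reporter that forms when its 2 fragments meet. In bindingPCA one fragment is on the domain and the other on its ligand. In abundancePCA the second fragment is present in excess, so that growth follows the amount of soluble domain. Less domain also lowers the signal in bindingPCA, so a low binding score alone cannot tell weaker binding from less domain. All 8 sets of construct and assay share the host and the selection, and each came from 3 input, 3 output and 1 wild-type library. Neither the ligand's identity nor the extensions' sequences are stated in the labels used.

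PDZ domains hold the C-terminal end of another protein in a groove between strand 2 and helix 2. The ligand lies along strand 2 as an added strand, and its last carboxylate is held by a glycine-rich loop before that strand. H372 stands at the start of helix 2 and faces the groove. In the ligands that this domain prefers, its imidazole bonds to the hydroxyl of a serine or threonine, the third residue from the ligand's end. G329 and G330 lie in strand 2 across the groove, I327 lines the pocket that takes the ligand's last side chain, and S371 and E373 are the helix neighbours of H372. In earlier studies of this domain H372A changed the class of ligand that is bound, and G330T was found to accept ligands of both classes.

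The values are scores that the authors call fitness, with the wild type near 0, and 1 standard error for each variant. The 3 cultures of a set are merged in them, so no value per culture and no read depth is given here. Growth ranges differ between sets, so most values below are scaled: a score divided by the size of the median single nonsense score of its set, which puts the wild type at 0 and that median at -1. The 58 to 61 single nonsense variants of a set had medians between -0.891 (NC) and -1.52 (PDZ3) in binding and between -0.901 (N) and -1.23 (C) in abundance. The median error of a member, unscaled, was 0.214 (N), 0.109 (C), 0.0876 (NC) and 0.205 (PDZ3) in binding and 0.0856, 0.153, 0.0917 and 0.133 in abundance. Tests were two-sided normal tests of a difference over the table's errors, with Benjamini-Hochberg adjustment over all tests of the same kind and a threshold of 0.05. Synonymous variants differed from the wild type at that threshold in 3.85% (PDZ3) to 14.6% (C) of cases in binding and in 5.51% (NC) to 30.1% (PDZ3) in abundance, so the errors are too small for part of the calls below, most of all for abundance of PDZ3.

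On their own, the 19 substitutions of H372 took most of the binding score and left abundance nearly untouched. Their mean scaled score in binding was -0.732 in N, -0.765 in C, -0.653 in NC and -0.805 in PDZ3. In abundance it was 0.00111 in N, -0.00262 in C, -0.00945 in NC and -0.00610 in PDZ3. H372Q, which keeps a polar side chain, was the mildest in binding in every construct, at -0.354 ± 0.0160 in N, -0.288 ± 0.00728 in C, -0.201 ± 0.00638 in NC and -0.447 ± 0.0281 in PDZ3 (± is the standard error throughout). Leucine was the second mildest in N, C and PDZ3 and valine in NC. H372N was lowest in N (-1.39), NC (-1.26) and PDZ3 (-1.30), and H372Y in C (-1.32). These 4 values lay well below the nonsense median, although the doubles that hold the same changes did not: those with H372N averaged -0.975 in N, -0.740 in NC and -0.993 in PDZ3, and those with H372Y averaged -0.955 in C. A sum that contains one of these singles is therefore low by construction. In abundance the singles ran from -0.0952 (H372W) to 0.0529 (H372L) in N, from -0.0840 (H372W) to 0.0654 (H372N) in C, from -0.0634 (H372W) to 0.0191 (H372K) in NC and from -0.121 (H372D) to 0.0943 (H372Y) in PDZ3.

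In binding, nearly all doubles with H372 were low, and none passed the test as higher than the wild type. Their number per set was 2166 in N, 2210 in C, of which 2204 had both singles, 2318 in NC and 1778 in PDZ3. Their median scaled score was -0.946 in N, -0.862 in C, -0.732 in NC and -0.967 in PDZ3, against -0.913, -0.670, -0.386 and -0.967 over all doubles of the same sets. The groups stood apart most in NC, where the quartiles of the H372 doubles were -0.890 and -0.575 and those of all doubles -0.810 and -0.0977. Scores above -0.5 were reached by 3.14% of the H372 doubles in N, 6.24% in C, 16.2% in NC and 1.52% in PDZ3, against 26.2%, 41.4%, 56.8% and 14.7% of all doubles. Below the wild type at the threshold were 2054 in N (background over all doubles 81.4%), 2152 in C (83.4%), 2190 in NC (69.9%) and 1699 in PDZ3 (89.6%). None was above it by this normal test, and at an unadjusted p under 0.05 the count was 0 in all 4 constructs as well.

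In abundance the same doubles kept most of their score. The sets held 2341 (N), 2389 (C), 2380 (NC) and 1555 (PDZ3) of them, with median scaled scores of -0.177 in N, -0.193 in C, -0.0860 in NC and -0.332 in PDZ3. All doubles of these sets had medians of -0.645, -0.559, -0.172 and -0.956. The share above -0.5 was 79.1% in N, 79.8% in C, 92.9% in NC and 61.9% in PDZ3, against 43.4%, 47.3%, 70.9% and 27.2% of all doubles. Below the wild type were 1137 in N (background 73.8%), 826 in C (63.6%), 489 in NC (39.2%) and 858 in PDZ3 (79.4%), and above it were 1, 0, 0 and 2. At an unadjusted p under 0.05 the counts above it were 2, 0, 5 and 3. The doubles measured in abundance of PDZ3 were fewer, and in every set those with an error at or under the median error of all doubles scored higher than the rest. In abundance of PDZ3 the 936 such doubles had a median of -0.214 and the rest -0.624, and their part in the differences between sets was not tested.

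A second change lowered the binding of an H372 variant further in 17.5% (PDZ3) to 24.6% (NC) of cases and raised it in 2.36% (PDZ3) to 8.76% (NC). Against the H372 single, doubles were lower in 497 of 2166 in N (background over all double-minus-single differences 34.7%), 405 of 2204 in C (49.8%), 570 of 2318 in NC (41.3%) and 17.5% of 1778 in PDZ3 (34.3%). They were higher in 54 in N (background 1.84%), 185 in C (4.49%), 203 in NC (3.08%) and 42 in PDZ3 (1.93%). Against the partner single the H372 change did more: 917 doubles were lower in N, 1386 in C, 1428 in NC and 697 in PDZ3, and 54, 109, 106 and 27 were higher, against the same backgrounds of 34.7%, 49.8%, 41.3% and 34.3% lower and 1.84%, 4.49%, 3.08% and 1.93% higher. Lower than both singles were 296 doubles in N (background 14.3%), 264 in C (26.4%), 16.0% of those in NC (21.3%) and 164 in PDZ3 (12.4%). As shares of the H372 doubles these were 13.7%, 12.0%, 16.0% and 9.22%, with the share under the background by the widest margin in C.

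In abundance the order was the other way round. The double was below its H372 single in 1036 of 2341 in N (background 36.2%), 730 of 2389 in C (37.2%), 387 of 2380 in NC (24.6%) and 803 of 1555 in PDZ3 (40.7%), and above it in 2 in N (3.48%), 0 in C (1.08%), 1 in NC (1.09%) and 0 in PDZ3 (3.97%). At an unadjusted p under 0.05 those above were 5, 0, 6 and 0. Against the partner single it was below in 121, 156, 117 and 180 doubles and above in 172, 59, 33 and 214, against the same backgrounds. The abundance of a double thus lay close to that of its partner single. Across the doubles of a set, Pearson's r between the double and its partner single was 0.894 in N, 0.784 in C, 0.720 in NC and 0.722 in PDZ3, and with its H372 single 0.190, 0.0693, 0.101 and 0.228. In binding the same r was 0.350, 0.237, 0.344 and 0.211 with the partner single and 0.237, 0.384, 0.395 and 0.207 with the H372 single. These are descriptions over 1555 to 2389 doubles that share 19 H372 singles, their partner singles and 1 wild type.

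Doubles that bound better than both of their singles were found mainly in C and NC. They numbered 3 in N (background 0.33%), 47 in C (0.607%), 26 in NC (0.284%) and 6 in PDZ3 (0.334%), or 0.139%, 2.13%, 1.12% and 0.337% of the H372 doubles. In abundance there were 0 in N (0.206%), C (0.0527%), NC (0.0447%) and PDZ3 (0.556%). At an unadjusted p under 0.05 in both differences, abundance had 2, 0, 3 and 0, and binding 6, 50, 33 and 11. G330, in strand 2 across the groove, was the partner in 33 of the 47 in C and in 14 of the 26 in NC, while S371 and E373 were the partner in none. At H372 these doubles mostly held phenylalanine, leucine, isoleucine or valine: 10, 9, 7 and 5 of the 47 in C, and 9, 4, 2 and 1 of the 26 in NC.

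The pairing of a changed G330 with a hydrophobic residue in place of H372 stood out by count, and the 4 amino acids were put together after these values were seen, so no test is given. With H372F, L, I or V, 28 of 70 doubles with G330 were above both singles in C and 13 of 71 in NC, against 1 of 71 in N and 2 of 47 in PDZ3. With the other 15 amino acids the counts were 5 of 232 in C, 1 of 239 in NC, 1 of 207 in N and 0 of 153 in PDZ3. The mean scaled binding score with F, L, I or V was -0.654 in N, -0.467 in C, -0.369 in NC and -0.754 in PDZ3. The mean H372 single in them was -0.556, -0.613, -0.433 and -0.652 and the mean G330 single -0.724, -0.620, -0.460 and -0.850. The doubles thus lay above both means in C and NC and between them in N and PDZ3. Phenylalanine gave the highest mean with G330, at -0.395 over 17 doubles in C and -0.249 over 18 in NC, against -0.611 in C and -0.432 in NC for H372F alone. In N it was -0.656 over 18 doubles and in PDZ3 -0.875 over 10, both below H372F alone (-0.587 in N, -0.737 in PDZ3). With H372A the mean with G330 was -0.945 in N, -0.921 in C, -0.754 in NC and -0.920 in PDZ3, and with H372G it was -1.03, -0.951, -0.827 and -0.995.

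Above both singles in C and in NC at once were 15 doubles, which is 31.9% of those in C and 57.7% of those in NC. The same overlap over all doubles is not given here, so these shares have no background. C and NC are separate libraries, each with its own wild type. G330E-H372F, which puts an acid on strand 2, scored highest, at -0.117 ± 0.0751 in C and -0.0475 ± 0.0628 in NC, and did not pass the test against the wild type in either. Its singles scored -0.671 (H372F) and -0.414 (G330E) in C, and -0.385 and -0.212 in NC. In N it scored -1.52 ± 0.708, an error too large to place it, and it was not among the entries used for binding of PDZ3. G330W-H372F scored -0.170 ± 0.0793 in C and -0.0997 ± 0.0441 in NC, against -0.671 and -0.635 for H372F and G330W in C. In N it scored -0.290 ± 0.369. G330M-H372F scored -0.161 ± 0.0650 in C and -0.145 ± 0.0368 in NC, but -1.33 ± 0.213 in N and -1.71 ± 0.697 in PDZ3. G330A-H372F scored -0.251 ± 0.0614 in C and -0.168 ± 0.0539 in NC, against -1.13 ± 0.267 in N and -1.93 ± 0.595 in PDZ3. The other shared doubles with G330 were G330T, Y and L with H372F, G330C, F and M with H372L, and G330W with H372V.

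G329 supplied the other 4 shared doubles. G329W-H372L scored -0.163 ± 0.0635 in C and -0.199 ± 0.0404 in NC, against -0.956 and -0.567 for G329W, a bulky change in strand 2, and -0.655 and -0.398 for H372L. In PDZ3 the double scored -1.19 ± 0.425. G329W-H372G scored -0.278 ± 0.0437 in C and -0.267 ± 0.0466 in NC, with H372G alone at -0.966 and -0.634, whereas in N it scored -1.46 ± 0.236 and in PDZ3 -1.46 ± 0.280. G329W-H372F and G329K-H372K were the remaining pair, the second with an error of 0.195 in C. In N only G330T-H372L (-0.376 ± 0.141), G329A-H372A (-0.741 ± 0.0937) and G330V-H372W (-0.846 ± 0.161) were above both singles. In PDZ3 the 6 included G330S-H372F (-0.409 ± 0.127), G330T-H372V (-0.556 ± 0.121) and R312P-H372E (-0.773 ± 0.121), and the other 3 had errors of 0.259 to 0.382. G330T-H372L was measured in all 4 constructs, at -0.376 ± 0.141 in N, -0.331 ± 0.0527 in C, -0.366 ± 0.0404 in NC and -0.704 ± 0.160 in PDZ3. It was above both singles in N and C, and did not pass in NC and PDZ3.

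G330T with H372A, the pair known from the work on ligand class, was above both singles in no construct. In C it scored -0.640 ± 0.0772, against -0.909 for H372A and -0.640 for G330T, so it was above H372A and level with G330T. In NC it scored -0.561 ± 0.0917, and differed at the threshold from neither H372A (-0.581) nor G330T (-0.385). In N it scored -1.53 ± 0.350, with singles at -1.08 and -0.987, and it was not among the entries used for binding of PDZ3. Its deviation from the sum of the singles was 0.921 ± 0.0782 in C and 0.404 ± 0.0922 in NC, both past the threshold, and 0.535 ± 0.352 in N, which was not. Its abundance was -0.101 ± 0.0697 in N, 0.00677 ± 0.128 in C, 0.129 ± 0.140 in NC and -0.841 ± 0.582 in PDZ3.

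By partner residue, doubles with I327 had the lowest mean binding in all 4 constructs, and those with S371 the highest in N, NC and PDZ3, with G330 highest in C. Doubles with I327 averaged -1.05 in N, -0.970 in C, -0.918 in NC and -0.991 in PDZ3, and I327 singles -0.850, -0.800, -0.759 and -0.887. Among these doubles 3 in N, 2 in C, 12 in NC and 4 in PDZ3 scored above -0.5. Doubles with G329 averaged -0.890 in N, -0.854 in C, -0.772 in NC and -0.924 in PDZ3, and G329 singles -0.826, -0.898, -0.800 and -0.891. In C and NC the G329 doubles thus lay slightly above the mean of the G329 singles. In NC that mean includes G329C at -1.62, well below the nonsense median, and the mean without it is not given here. Doubles with G330 averaged -0.858 over 278 in N, -0.745 over 302 in C, -0.651 over 310 in NC and -0.911 over 200 in PDZ3. G330P was the mildest G330 single in all 4 constructs, at -0.294 in N, -0.0664 in C, -0.0536 in NC and -0.455 in PDZ3.

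Singles of R312 and D357 were milder in C and NC than in N and PDZ3. Singles of R312 averaged -0.683 in N, -0.217 in C, -0.101 in NC and -0.860 in PDZ3, and its doubles with H372 -1.04, -0.881, -0.735 and -0.970. Singles of D357 averaged -0.719 in N, -0.377 in C, -0.217 in NC and -0.775 in PDZ3, and its doubles -1.02, -0.912, -0.784 and -0.985. D357 was the partner that most often took an H372 variant lower: below the H372 single were 177 of 358 in N, 146 of 355 in C, 166 of 361 in NC and 99 in PDZ3. The backgrounds over all doubles were 34.7%, 49.8%, 41.3% and 34.3%, so only in N was its share well above the background. In NC its doubles were below both singles in 140 of 361, against 18 of 310 with G330 and a background of 21.3%.

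Changes of the helix neighbour S371 did little by themselves in C and NC, and its doubles bound about as the H372 single did. Singles of S371 averaged -0.0882 in N, 0.0284 in C, 0.0182 in NC and -0.234 in PDZ3. Doubles with S371 averaged -0.810 over 360 in N, -0.753 over 361 in C, -0.612 over 361 in NC and -0.899 over 348 in PDZ3, against means of -0.731, -0.765, -0.653 and -0.805 for the H372 singles in them. They were above the H372 single in 19 (N), 64 (C), 62 (NC) and 15 (PDZ3) and below it in 56, 28, 31 and 62, against backgrounds of 1.84%, 4.49%, 3.08% and 1.93% above and 34.7%, 49.8%, 41.3% and 34.3% below. Of those above it in C, 31 held an aromatic residue in place of H372, and these include H372Y, which alone was at -1.32. Doubles with E373 averaged -0.852 in N, -0.817 in C, -0.680 in NC and -0.925 in PDZ3, and E373 singles -0.342, -0.167, -0.115 and -0.471. Above -0.5 were 19 (N), 30 (C), 106 (NC) and 7 (PDZ3) of the S371 doubles and 10, 17, 55 and 2 of the E373 doubles.

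H372Q kept more binding than any other H372 single. Doubles that also changed S371 to a large hydrophobic residue scored lower, by most in N and PDZ3, where the S371 singles were lower as well. With S371 as V, L, I, M, F, W or Y, a group put together after the values were seen, the double was below H372Q in 7 of 7 cases in N, 4 of 7 in C, 5 of 7 in NC and 6 of 7 in PDZ3, and above it in none. With the other amino acids in place of S371 it was below in 4 of 12 in N, C and NC and in 4 of 11 in PDZ3. The backgrounds over all double-minus-single differences were 34.7% in N, 49.8% in C, 41.3% in NC and 34.3% in PDZ3. Against the sum of the singles, the first group was lower at the threshold in 6 of 7 in N, 6 of 7 in C, 5 of 7 in NC and 1 of 7 in PDZ3. The second was lower in 3 of 12, 6 of 12, 4 of 12 and 0 of 11. Backgrounds of doubles lower than the sum were 7.9%, 17.7%, 14.1% and 6.61%. The median scaled score of the first group was -0.832 in N, -0.409 in C, -0.339 in NC and -0.968 in PDZ3, and of the second -0.511, -0.369, -0.274 and -0.735. In C the groups hardly differed, and the lowest scaled score was -0.583 in the first and -0.707 in the second. S371W-H372Q scored -1.42 ± 0.199 in N, -0.572 ± 0.0336 in C, -0.373 ± 0.0652 in NC and -1.49 ± 0.255 in PDZ3, against -0.526, -0.316, -0.179 and -0.682 for H372Q and -0.256, 0.0381, 0.0130 and -0.919 for S371W. S371F-H372Q scored -1.31 ± 0.198, -0.463 ± 0.0461, -0.324 ± 0.0366 and -1.51 ± 0.172 in the same order of constructs. Abundance fell with some of these as well: S371W-H372Q scored -0.467 ± 0.0856 in N and -1.14 ± 0.0376 in PDZ3, but there S371W alone was already at -0.438 and -1.07. S371T-H372Q was the highest double in binding of PDZ3 among those with an error no larger than the median error, at -0.312 ± 0.193, and its scores elsewhere were -0.584 ± 0.159 (N), -0.368 ± 0.0607 (C) and -0.184 ± 0.0254 (NC).

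The lowest deviations from the sum of the singles in binding were those of S371F, L, W and M with H372Q and of S371E with H372P, under a rule that required the same direction past the threshold in at least 2 constructs. S371F-H372Q deviated by -0.688 ± 0.204 in N, -0.178 ± 0.0481 in C and -0.169 ± 0.0384 in NC, all past the threshold, and by -0.243 ± 0.189 in PDZ3, which was not. S371L-H372Q deviated by -0.626 ± 0.140, -0.152 ± 0.0307, -0.173 ± 0.0422 and -0.285 ± 0.120, past the threshold in all 4 constructs. S371W-H372Q was lower in N, C and NC, and in PDZ3 its deviation was 0.106 ± 0.267. S371M-H372Q passed in C (-0.331 ± 0.0889) and NC (-0.140 ± 0.0295) and S371E-H372P in N (-0.509 ± 0.172) and NC (-0.228 ± 0.0663).

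Most departures from additivity in binding were positive: the double scored higher than the sum of its singles in 904 doubles of N (background 19.5%), 953 of C (21.5%), 820 of NC (10.5%) and 1067 of PDZ3 (39.0%), and lower in 19 (7.9%), 51 (17.7%), 84 (14.1%) and 2 (6.61%). As shares, those higher were 41.7%, 43.2%, 35.4% and 60.0% of the H372 doubles. The sum of the singles fell below the nonsense median, the low end of the assay, in 75.9% of these doubles in N, 57.3% in C, 41.6% in NC and 88.4% in PDZ3. With the sum held at the nonsense median, 206 (background 3.08%), 341 (8.35%), 412 (6.19%) and 72 (2.49%) were higher. When the fractions of binding left by each single were multiplied, 5.08% (background 2.49%) were higher in N, 11.8% (7.29%) in C, 14.1% (5.2%) in NC and 2.64% (2.35%) in PDZ3, and 1.52% (7.37%), 3.27% (19.4%), 6.82% (15.0%) and 0.45% (6.03%) lower. In PDZ3 the share of higher doubles under the product was near the background. The fractions were not limited at the nonsense median, so a single below it entered the product as a negative fraction. Among such singles were H372N in N, NC and PDZ3 and H372Y in C, and for their doubles the product is not a fraction of binding left.

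The mean scaled deviation over all H372 doubles in binding was 0.378 ± 0.0144 in N, 0.330 ± 0.00625 in C, 0.249 ± 0.00639 in NC and 0.512 ± 0.0264 in PDZ3, with medians over all residues of -0.0209, -0.00827, -0.0353 and 0.108. H372 ranked 7th of 62 residues from the top in N, 3rd of 61 in C, 3rd of 62 in NC and 10th of 61 in PDZ3, where 80.6%, 86.9%, 82.3% and 73.8% of residues passed the threshold. Under the product the mean was -0.0392 ± 0.00573 in N, 0.0147 ± 0.00425 in C, 0.0328 ± 0.00430 in NC and -0.0110 ± 0.00568 in PDZ3, against medians over all residues of -0.112, -0.0658, -0.0645 and -0.0646. In N the product thus gave the opposite sign past the threshold, and in PDZ3 it did not pass. Without the doubles that hold H372N or H372Y, the mean from the sum was 0.338 in N, 0.314 in C, 0.199 in NC and 0.495 in PDZ3.

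Of the 7 partner residues, G329 and G330 were the only ones whose mean deviation in binding was positive and past the threshold in all 4 constructs both as a sum and as a product. The sum gave G329 0.657 ± 0.0206 in N, 0.817 ± 0.0166 in C, 0.664 ± 0.0136 in NC and 0.758 ± 0.0355 in PDZ3, and the product 0.0614 ± 0.0150, 0.123 ± 0.0153, 0.155 ± 0.0119 and 0.0519 ± 0.0230. G330 had 0.559 ± 0.0223, 0.648 ± 0.0123, 0.449 ± 0.0129 and 0.715 ± 0.0322 as a sum and 0.0581 ± 0.0176, 0.166 ± 0.0113, 0.154 ± 0.0119 and 0.0561 ± 0.0183 as a product. By the sum, H372 with G329 ranked 2nd of 142 residue pairs in N, first of 141 in C, first of 142 in NC and 4th of 140 in PDZ3. As a sum, 6 partner residues passed in N (background over residue pairs 85.2%), 6 in C (85.8%), 6 in NC (83.8%) and 7 in PDZ3 (85.7%), which is near the background. I327 had 0.534 ± 0.0227 in N, 0.600 ± 0.0131 in C, 0.486 ± 0.0156 in NC and 0.697 ± 0.0304 in PDZ3 as a sum, and its product means were all below 0, from -0.0861 ± 0.0180 in N to -0.00272 ± 0.0147 in NC. D357 was below 0 as a product in all 4 constructs (-0.0905 ± 0.00988, -0.0574 ± 0.00736, -0.0559 ± 0.00653 and -0.0286 ± 0.0100). S371 stood near 0 as a sum in N (0.00878 ± 0.0163) and C (-0.00571 ± 0.00693), and E373 lay between 0.0856 ± 0.00809 in NC and 0.355 ± 0.0309 in PDZ3.

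Among the H372 amino acids the mean deviation in binding was positive and past the threshold for all 19 in N (background over single substitutions 66.7%), C (71.5%) and PDZ3 (63.2%) and for 18 in NC (62.2%), with H372Q the exception at 0.0141 ± 0.0178. These backgrounds count means past the threshold in either direction. H372Q was also the lowest in N (0.107 ± 0.0327), C (0.0633 ± 0.0168) and PDZ3 (0.202 ± 0.0447). The highest were H372N in N (0.962 ± 0.0668), NC (0.834 ± 0.0348) and PDZ3 (0.924 ± 0.0517) and H372Y in C (0.721 ± 0.0513), each the lowest single of its construct. As a product, 12 passed in N, 5 in C, 8 in NC and 3 in PDZ3, of which 2, 4, 5 and 1 were positive. H372L was positive in N (0.0301), C (0.0677) and NC (0.0579) and H372F in C (0.0600) and NC (0.0851), while H372Q was below 0 in all 4 constructs (-0.0948, -0.0587, -0.0536 and -0.0824).

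The highest deviations named by the rule also rested on those singles. They were I327T, I327S, D357R and G329R with H372N and I327T with H372Y. D357R-H372N scored -1.53 ± 0.162 in N, -1.06 ± 0.0676 in C, -0.781 ± 0.0900 in NC and -1.60 ± 0.214 in PDZ3, close to D357R alone (-1.52, -1.12, -0.845 and -1.44). Its deviation was 2.05 ± 0.186, 0.879 ± 0.0820, 1.19 ± 0.0937 and 1.82 ± 0.229. H372N alone scored -2.06 in N, -0.812 in C, -1.13 in NC and -1.98 in PDZ3. I327T-H372N scored -0.468 ± 0.144 in NC, above both H372N and I327T (-0.870) there, while its abundance was 0.124 ± 0.198. In N it scored -1.53 ± 0.274, in C -1.01 ± 0.576 and in PDZ3 -1.37 ± 0.417.

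In abundance departures from additivity were less frequent than among all doubles. Higher than the sum were 111 in N (background 13.5%), 50 in C (6.12%), 29 in NC (2.24%) and 186 in PDZ3 (22.7%), and lower were 72 (8.26%), 105 (15.4%), 66 (13.1%) and 134 (11.9%). The sum fell below the nonsense median in 5.98% of H372 doubles in N, 2.76% in C, 2.35% in NC and 10.8% in PDZ3. The mean scaled deviation was -0.000617 ± 0.00447 in N, -0.0797 ± 0.00575 in C, -0.0395 ± 0.00438 in NC and -0.0316 ± 0.00739 in PDZ3, with medians over residues of -0.0153, -0.110, -0.0726 and -0.00635. It passed the threshold in C, NC and PDZ3, as 91.8%, 90.3% and 83.6% of residues did, and not in N, where 83.6% did. Among doubles with low errors it was 0.0203 in N and 0.0177 in PDZ3, so its sign in PDZ3 depended on which doubles were kept.

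By partner, D357 cost the most abundance: its doubles averaged -0.579 in N, -0.554 in C, -0.343 in NC and -0.714 in PDZ3, near its singles at -0.633, -0.505, -0.311 and -0.722. I327 doubles averaged -0.415, -0.400, -0.126 and -0.581, and R312 doubles -0.382, -0.319, -0.166 and -0.547. G329, G330, S371 and E373 doubles were milder, between -0.0700 (S371 in NC) and -0.353 (S371 in PDZ3). The G329 doubles averaged -0.107 in N, -0.285 in C, -0.0985 in NC and -0.163 in PDZ3. The mean deviation passed the threshold for 5 partner residues in N (background 79.7%), 7 in C (92.2%), 6 in NC (88.0%) and 6 in PDZ3 (85.6%). All 7 were negative in C, most of all G329 (-0.185 ± 0.0169) and G330 (-0.103 ± 0.0134), and all 7 had negative means in NC, from -0.0660 ± 0.0105 (G330) to -0.0139 ± 0.0114 (E373). In N, D357 (0.0533 ± 0.00603) and I327 (0.0330 ± 0.00994) were positive and G329 (-0.0525 ± 0.0112), E373 (-0.0455 ± 0.00764) and G330 (-0.0252 ± 0.0104) negative. Among doubles with low errors, G330 in N was instead positive past the threshold (0.0495 ± 0.0106). G329 in N was then 0.0167 ± 0.0111, which did not pass. In PDZ3, R312 was positive (0.0898 ± 0.0245) and E373 lowest (-0.101 ± 0.0192).

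By the amino acid that replaced H372, mean deviations in abundance ran in both directions. H372D and H372N had the 2 lowest means in every construct: H372D had -0.118 ± 0.0173 in N, -0.253 ± 0.0250 in C, -0.148 ± 0.0188 in NC and -0.246 ± 0.0419 in PDZ3, and H372N -0.134 ± 0.0194, -0.278 ± 0.0273, -0.112 ± 0.0185 and -0.241 ± 0.0354. By themselves these amide and acid changes cost little abundance, with scaled scores between -0.0170 and 0.0654 for H372N and between -0.121 and -0.0211 for H372D. H372V and H372L, with branched hydrophobic side chains, were the highest in N (0.0731 ± 0.0108 and 0.0560 ± 0.0107) and PDZ3 (0.143 ± 0.0223 and 0.0942 ± 0.0218). H372L was also highest in C (0.0107 ± 0.0148) and NC (0.0115 ± 0.00976), where it did not pass. Past the threshold were 8 of 19 in N (background 65.6%), 13 in C (75.4%), 10 in NC (60.6%) and 9 in PDZ3 (67.8%). Of these, 4 in N and 2 in PDZ3 were positive and none in C and NC.

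The highest deviations in abundance belonged to D357G with H372V, I and L, D357E with H372L and R312W with H372L, in which the H372 change came with more domain than the partner change alone. D357G-H372V scored -0.386 ± 0.0366 in N, -0.332 ± 0.0614 in C, -0.278 ± 0.0407 in NC and -0.375 ± 0.0289 in PDZ3, against -0.847, -1.12, -0.691 and -1.13 for D357G alone and 0.0286, 0.00834, -0.0147 and 0.0319 for H372V. The deviation was 0.433 ± 0.0375, 0.775 ± 0.0634, 0.428 ± 0.0419 and 0.717 ± 0.0321, past the threshold in all 4. In binding the same double stayed low, at -1.30 ± 0.0732, -0.990 ± 0.0479, -0.889 ± 0.0577 and -1.55 ± 0.0843, where D357G scored -1.41, -0.969, -0.334 and -1.46. D357E-H372L scored -0.0926 ± 0.0403 in N, 0.0135 ± 0.117 in C, 0.0446 ± 0.0536 in NC and -0.197 ± 0.0232 in PDZ3 in abundance, against -0.438, -0.414, -0.102 and -0.987 for D357E. Its deviation passed in N, C and PDZ3 and not in NC. R312W-H372L scored -0.416 ± 0.0942, -0.348 ± 0.113, -0.139 ± 0.0991 and -0.522 ± 0.198, against -0.712, -1.05, -0.497 and -1.77 for R312W. In PDZ3 the R312W single lay well below the nonsense median, at a scaled -1.51, so the sum there is low by construction. That value also enters the mean over the 4 constructs by which the double was chosen. In binding of C, R312W-H372L scored -0.356 ± 0.0364, above both singles (-0.655 and -0.638), and -1.84 ± 0.214 in N, -0.624 ± 0.0869 in NC and -1.44 ± 0.185 in PDZ3.

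At the other end were D357C and D357A with H372D, S371I with H372D, E373F with H372C and E373Q with H372W. D357A-H372D scored -0.609 ± 0.0814 in N, -1.11 ± 0.154 in C, -0.568 ± 0.0900 in NC and -0.745 ± 0.292 in PDZ3 in abundance, with D357A at -0.264, -0.296, -0.0925 and -0.380 and H372D at -0.0467, -0.0267, -0.0227 and -0.141. It was lower than the sum in N, C and NC. D357C-H372D was lower by the same test in N, C and NC, with deviations of -0.334 ± 0.130, -0.981 ± 0.189 and -0.599 ± 0.184, and in PDZ3 it was -0.672 ± 0.592 and did not pass. E373Q-H372W scored -0.412 ± 0.102 in N and -0.854 ± 0.209 in C, where E373Q alone scored 0.150 and 0.104. S371I-H372D passed in N and C and E373F-H372C in N and NC.

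Among doubles with an error no larger than the median error of their set, the highest in binding were G330T-H372L in N, G330E-H372F in C and NC and S371T-H372Q in PDZ3. The lowest were D357A-H372W in N (-1.84 ± 0.185), D357L-H372T in C (-1.23 ± 0.0719), D357R-H372S in NC (-0.970 ± 0.0425) and S371C-H372D in PDZ3 (-1.78 ± 0.127). In abundance the highest were G329S-H372A in N (0.208 ± 0.0782), G329N-H372L in C (0.181 ± 0.141), R312N-H372Y in NC (0.214 ± 0.0977) and E373D-H372M in PDZ3 (0.153 ± 0.0988). The lowest in abundance were D357R-H372Q in N (-1.19 ± 0.108), D357R-H372P in C (-1.59 ± 0.152), D357R-H372S in NC (-1.29 ± 0.0888) and I327K-H372W in PDZ3 (-1.62 ± 0.125). No double was past the threshold of the additivity test in the same direction in all 8 sets.

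Across constructs the scores of the same double agreed in part. Pearson's r between C and NC was 0.558 over 2068 doubles in binding and 0.587 over 2268 in abundance, between N and PDZ3 0.329 over 1628 and 0.772 over 1509, and between N and C 0.420 over 1952 and 0.786 over 2249. Binding and abundance of the same double had r of 0.379 in N, 0.268 in C, 0.193 in NC and 0.286 in PDZ3. These are descriptions, since the doubles share singles and the range is narrow in binding.

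Extensions were compared on the mean scaled deviation over the 1499 doubles measured with both singles in binding of all 4 constructs, and all 3 comparisons share PDZ3. In binding the mean was 0.320 in N, 0.263 in C and 0.163 in NC, against 0.471 in PDZ3. The difference from PDZ3 was -0.151 ± 0.0305 for N (65.6% of residues past the threshold), -0.207 ± 0.0275 for C (62.3%) and -0.308 ± 0.0275 for NC (70.5%), each past the threshold. Under the product the differences for C and NC were 0.0190 and 0.0232, so the sign of both rested on the additive sum. In abundance, over 1466 doubles, the mean was 0.0146 in N, -0.0533 in C and -0.0207 in NC, against -0.0348 in PDZ3. The difference was 0.0494 ± 0.00890 for N (81.7%), which passed, and -0.0185 ± 0.00960 for C (68.3%) and 0.0141 ± 0.00891 for NC (81.7%), which did not. Among doubles with low errors the difference for N was -0.000439.

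By partner residue, the largest extension difference of the mean deviation in binding was at R312, a residue of strand 1: 0.346 in N, 0.0839 in C and -0.0430 in NC over 123 doubles, against 0.626 in PDZ3. It was lower than in PDZ3 by all 3 comparisons, with differences of -0.280 ± 0.0477, -0.542 ± 0.0389 and -0.669 ± 0.0412. For D357 they were -0.163 ± 0.0335 (N), -0.337 ± 0.0300 (C) and -0.510 ± 0.0298 (NC), second in size for C and NC, while for N that of G330 was larger, at -0.173 ± 0.0438. Counted in either direction, 6 of the 7 partner residues passed in N (background over residue pairs 73.2%), 5 in C (79.0%) and all 7 in NC (77.5%). Those that passed were all lower than in PDZ3, and G329 and G330 were those that did not pass in C. Under the product this direction held past the threshold only for R312, I327 and D357 in N and for R312 and D357 in C and NC. The product turned 10 of the 21 differences positive, among them S371 (0.0580) and G330 (0.0960) in C and S371 (0.0806), G330 (0.0665), G329 (0.0848) and E373 (0.0343) in NC, each past the threshold. In abundance 5 passed in N (69.1%), 3 in C (74.3%) and 3 in NC (77.9%). I327 was higher in N by 0.101 ± 0.0220 and E373 higher in NC by 0.0927 ± 0.0226, and R312 was lower in C, with -0.111 ± 0.0323, and in NC, with -0.0946 ± 0.0310. These comparisons by partner were added after the data were seen.

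Binding minus abundance of the mean scaled deviation over the same doubles was 0.360 ± 0.0155 in N over 2067 doubles (70.5% of residues past the threshold), 0.393 ± 0.00893 in C over 2153 (88.5%), 0.276 ± 0.00796 in NC over 2223 (72.6%) and 0.481 ± 0.0279 in PDZ3 over 1265 (54.1%). The binding means were 0.366, 0.324, 0.241 and 0.456 and the abundance means 0.00546, -0.0687, -0.0355 and -0.0251. H372 ranked 5th of 61 residues from the top in N, 4th of 61 in C, 4th of 62 in NC and 4th of 61 in PDZ3. Under the product the difference was -0.0473 in N and 0.00248 in PDZ3, and there the last did not pass, so this contrast too depended on how the singles were combined.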

How the data were processed

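Fitness scores and their errors for PDZ3 variants in 4 constructs and 2 assays were taken as deposited by the authors. Per the deposited column descriptions, each score is relative to the wild type of its construct and assay, and its log base and how it was computed from reads are not stated. Reads went through cutadapt and FastQC, per the submitters' processing notes. The wild type of NC is listed only with a placeholder error, so its score was computed from its deposited growth rate by the straight line between growth rates and scores of that set. Cultures were merged into 1 value per variant before deposit, so the errors come from the authors and not from replicates here. Members and lists were chosen with earlier results of these data known.

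From the scores, the deviation of a double was computed as the double minus both singles plus the wild type. Errors were combined in quadrature, and means over doubles included the covariance from shared singles and the wild type, with at least 10 doubles per mean. Differences were divided by their errors and tested two-sided against the normal distribution, with Benjamini-Hochberg adjustment over all doubles of a set and a threshold of 0.05. P-values therefore rest on the authors' errors, which the synonymous variants show to be too small in part.

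Named residues were the 3 partners with the highest and the 3 with the lowest mean deviation per set. Named doubles were the 5 highest and 5 lowest by mean scaled deviation over the 4 constructs, among those past the threshold in the same direction in at least 2 constructs. G330T-H372A was always named, as were the highest and lowest scoring double of each set with an error at or below the set's median. Alternatives changed the errors, the expected value of the double, the doubles included, the scaling and the wild type's error. On simulated sets with 100 known departures of 1 in unscaled score, and no departure in nearly all other doubles, the test recovered 53% in N, 95% in C, 89% in NC and 58% in PDZ3 in binding. Python 3.11.15 with numpy 2.4.6, pandas 2.3.3 and scipy 1.17.1 was used.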

Additional observations from a re-analysis of the deposited data

Results flagged for a closer look

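The mean scaled deviation of the H372 doubles from the sum of their singles differed between constructs, tested as a contrast over the doubles measured in all 4 constructs. In binding it was lower with each extension than in PDZ3, with differences of -0.151 for N, -0.207 for C and -0.308 for NC. In abundance it was 0.0494 higher in N than in PDZ3. It also differed between the assays, tested over the doubles measured in both. Binding minus abundance was 0.360 in N, 0.393 in C, 0.276 in NC and 0.481 in PDZ3. With the floored sum the binding contrasts of C and NC did not pass the threshold, at 0.00995 ± 0.00762 and 0.00340 ± 0.00793. The product reversed both past the threshold, and also the binding minus abundance difference in N. No check for a single outlying culture could be made, because the deposited scores merge the cultures of each set.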

How the results depend on the processing

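The number of departures from additivity in binding, and the sign of some means, depended on how the singles were combined. With the sum held no lower than the nonsense median, the doubles that departed from additivity in binding were 10.2% in N (background over all doubles 9.13%), 17.5% in C (24.8%), 21.2% in NC (19.8%) and 4.05% in PDZ3 (6.55%). With the fractions left by the singles multiplied, they were 6.60% in N (9.85%), 15.1% in C (26.7%), 20.9% in NC (20.2%) and 3.09% in PDZ3 (8.38%). Pooled over both directions, these shares were near or under the background in every construct, but the directions differed. With the floored sum, 9.51% were higher in N (background 3.08%), 15.5% in C (8.35%), 17.8% in NC (6.19%) and 4.05% in PDZ3 (2.49%). Lower were 0.646% (6.05%), 2.04% (16.5%), 3.41% (13.6%) and 0% (4.05%). The shares by direction under the product are given above. The product turned the mean scaled deviation in binding to -0.0392 in N and -0.0110 in PDZ3, and binding minus abundance to -0.0473 in N, while in PDZ3 that difference was 0.00248 and no longer passed. With the floored sum the contrasts in binding against PDZ3 were 0.00995 ± 0.00762 in C and 0.00340 ± 0.00793 in NC, and neither passed the threshold. With the product they turned positive past the threshold, at 0.0190 in C and 0.0232 in NC. The NC contrast in abundance passed the threshold with the floored sum, at 0.0217. The floored sum left 3 replacements of H372 past the threshold in binding in N and 4 in PDZ3, and 4 partner residues in PDZ3. The product left 12 replacements in N, 5 in C, 8 in NC and 3 in PDZ3. These alternatives change what the double is compared with, and not the double itself.

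By partner residue, the floored sum turned mean deviations in binding negative in N for D357 (-0.0224), I327 (-0.0509), R312 (-0.0419) and S371 (-0.0231), and in NC for D357 (-0.0236) and R312 (-0.0283). Of these, R312 and S371 in N and R312 in NC did not pass the threshold. In abundance the floored sum moved D357 in PDZ3 to -0.00206, which did not pass either. The product turned N to -0.0905 for D357, -0.0287 for E373, -0.0861 for I327, -0.123 for R312 and -0.0551 for S371. In C it gave -0.0574 for D357, -0.00934 for E373, -0.0174 for I327, -0.0676 for R312 and 0.00813 for S371. In NC it gave -0.0559 for D357, -0.00272 for I327 and -0.0570 for R312. In PDZ3 it gave -0.0286 for D357, -0.0253 for E373, -0.0135 for I327, -0.00365 for R312 and -0.0492 for S371. Of these product means, E373, I327 and S371 in C, I327 in NC, and I327 and R312 in PDZ3 did not pass the threshold. Of the contrasts by partner against PDZ3, the product turned these positive in binding: E373 (0.000832) and G329 (0.0266) in N, E373 (0.0267), G330 (0.0960) and S371 (0.0580) in C, and E373 (0.0343), G329 (0.0848), G330 (0.0665), I327 (0.0106) and S371 (0.0806) in NC.

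Of the named doubles, the floored sum turned the deviations in binding, in unscaled score, to -0.0456 in N and -0.0731 in PDZ3 for D357R-H372N, -0.0405 in N for G329R-H372N and -0.0464 in N for G330T-H372A. It gave -0.00359 in N, -0.0381 in C and -0.106 in PDZ3 for I327S-H372N, -0.0437 in N for I327T-H372N, and -0.167 in N and -0.0270 in C for I327T-H372Y. The product gave -0.0611 in N and -0.0475 in PDZ3 for D357R-H372N, -0.182 in N for G330T-H372A, and -0.00270 in N, -0.0434 in C and -0.0975 in PDZ3 for I327S-H372N. It gave -0.00760 in N for I327T-H372N, -0.166 in N and -0.0117 in C for I327T-H372Y, and -0.305 in PDZ3 for S371W-H372Q. None of these floored or product deviations passed the threshold, and their errors ran from 0.0884 to 0.780.

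With all errors multiplied by 2, departures from additivity were 10.8% in N, 21.7% in C, 13.9% in NC and 22.0% in PDZ3 in binding, and 0.641% in N, 0.293% in C, 0.168% in NC and 4.76% in PDZ3 in abundance. Shares over all doubles with these errors are not given here. In abundance the doubles that differed from the wild type were 20.8% in N, 10.2% in C, 4.50% in NC and 28.2% in PDZ3. Those that differed from the H372 single were 1.43% in N, 5.40% in C, 6.26% in NC and 0.900% in PDZ3 in binding, and 15.0% in N, 7.91% in C, 3.57% in NC and 22.0% in PDZ3 in abundance. Those that differed from the partner single were 20.4% in N and 17.0% in PDZ3 in binding, and 1.5% in N, 0.502% in C, 0.252% in NC and 6.50% in PDZ3 in abundance. In abundance 4 replacements of H372 in N, 6 in C, 3 in NC and 4 in PDZ3 were past the threshold, as did 3 partner residues in N and 1 in PDZ3.

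Restricting the doubles to those with an error no larger than the set's median left fewer to test. Of these, departures from additivity in binding were 46.0% in C, 36.5% in NC and 70.0% in PDZ3. Shares over all doubles under this restriction are not given here. Differences from the wild type were 99.8% in N, 99.8% in C, 99.8% in NC and 99.9% in PDZ3 in binding, and 37.5% in C in abundance. Differences from the H372 single were 40.5% in C and 45.3% in NC in binding and 34.3% in C and 16.7% in NC in abundance, and those from the partner single 92.5% in C and 92.0% in NC in binding. In abundance the mean over all H372 doubles became 0.0203 in N and 0.0177 in PDZ3, and the contrasts against PDZ3 became -0.000439 in N, -0.0485 in C, which now passed, and -0.0306 in NC. The replacements of H372 past the threshold in abundance numbered 15 in N, 4 in NC and 14 in PDZ3, and the partner residues in NC 2. Partner means in abundance changed sign to 0.0167 (G329) and 0.0495 (G330) in N, 0.000580 (D357) and 0.00442 (I327) in C, and 0.0146 (G330) and 0.0414 (S371) in PDZ3. Of these, only G330 in N and S371 in PDZ3 passed the threshold. In binding the partner means of D357 (-0.00707) and R312 (-0.00718) changed sign in NC, and neither passed. The cause was not tested.

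Among the 1127 doubles measured in all 8 sets, 44.2% in N, 42.3% in C, 34.3% in NC and 57.3% in PDZ3 departed from additivity in binding. Shares over all doubles measured in all 8 sets are not given here. The C contrast in abundance passed the threshold when scores were left unscaled (-0.0249) or the wild type was taken as exact (-0.0209). Without H372N and H372Y, an alternative chosen after seeing the data, mean deviations in binding turned negative for S371 in N (-0.0330) and NC (-0.0244) and for R312 in NC (-0.0510), and the mean in abundance in N was 0.00681. The contrasts by partner residue were also added after seeing the data.

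No paired analysis was possible because the table merges the cultures of a set into 1 value per variant, and no single culture could be left out for the same reason. Using only the entry with the lowest error was not run, because no single or double substitution repeats within a set. Read depth is unknown, so the errors stand for it. The median error was largest in binding of N and PDZ3. In simulated sets of binding, an unscaled departure of 0.5 was recovered for 13% of 100 doubles in N and in PDZ3, 71% in C and 79% in NC. Nearly all other simulated doubles had no departure, whereas 24.6% (NC) to 45.7% (PDZ3) of all real doubles passed. The adjusted cutoff was therefore stricter in the simulation, and these rates do not give the recovery in the real sets. They are also not alike between constructs, since 0.5 is a different part of each scale.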
